A study of Mus musculus with 15 samples.

Results

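The collagen genes of the mouse were followed across mammary tumors and control glands by RNA sequencing. They were taken as all genes whose symbol is Col, a number, the letter a and a second number, which gave 44 of the 51826 genes in the files. Of these, 11 encode chains of fibrillar collagens, 6 chains of the type IV collagen of basement membranes, 9 fibril-associated collagens with interrupted triple helices (FACIT), 6 type VI chains and 3 chains of the network-forming types VIII and X. The other members are 2 multiplexins, 4 transmembrane collagens and 3 genes placed under type VII and other (Col7a1, Col26a1 and Col28a1). All values are RNA levels in TPM, the abundance of a transcript within its library corrected for its length, so that levels can be set side by side between genes. In this scale 40 members reached 1 TPM in at least 1 of the 15 libraries, and 12 were at or above 10 TPM in every library.

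The libraries came from 13 mice, and each mouse is named here by its number in the labels. Control glands 133, 392, 417_3 and 517_3 were normal mammary glands of mice carrying the MMTV-Cre transgene alone, which per the study's methods were virgin and matched in age to the tumor mice. Tumors 64, 567 and 897 (carcinosarcomas, tumors with malignant epithelial and sarcoma-like parts) and tumors 89, 273_5 and 3956 (carcinomas) arose in Trim24COE mice. These carry a Flag-tagged mouse Trim24 transgene that Cre under the MMTV promoter, active mainly in mammary epithelium, switches on, and the controls share the Cre but not that transgene. Tumors 219, FVB001 and FVB002 were spontaneous mammary carcinomas of unknown genotype, called non-TRIM24 tumors. The strain is given as FVB in some labels and as a mix of FVB and 129 elsewhere. Ages are not in the labels, and a tumor list that accompanies the publication gives ages that differ among the Trim24COE mice. Classes here follow the labels. In that list both pathologists placed tumors 64 and 897 among carcinosarcomas and 273_5 among carcinomas, whereas their diagnoses differed for 89, 567 and 3956, and carcinomas 89 and 3956 were each a carcinosarcoma to one of them. The list also holds a class call from the RNA sequencing for all of these but 3956, and whether the labelled classes rest on it is not stated. Gland 133 and tumor 3956 were each sequenced a further time in batch 2. As the 3 non-TRIM24 tumors were sequenced in batch 2 only, their group and batch are separated through these repeat libraries alone.

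Collagens are trimers of chains that share a repeating glycine motif. Fibrillar collagens (types I, II, III, V, XI and others) build the tensile fibrils of stroma, and FACIT collagens sit on the surface of such fibrils. Type IV forms the sheet of basement membranes, under which types VI, VII, XV and XVIII link epithelium, vessels and fat cells to the stroma, while transmembrane collagens such as type XVII stay anchored in the cell surface. In the mammary gland most fibrillar collagen is made by fibroblasts, and epithelium, endothelium and fat cells contribute basement membrane chains.

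The composition of the glands and tumors differed between libraries and bears on every comparison below. The summed TPM of 8 adipocyte markers was 25392 and 37977 in glands 133 and 392, against 1730 and 1924 in glands 417_3 and 517_3 and 115 to 1266 in the Trim24COE tumors, and it reached 53858 in non-TRIM24 tumor FVB001. Nearly all of the sum in glands 417_3 and 517_3 was Fabp4, at 1644 and 1830 TPM. Every other marker of this list was higher in carcinoma 89 than in these 2 glands. Adipoq, for instance, was at 68.2 TPM there against 10.15 and 10.75 TPM. Mammary epithelial markers summed to 826 and 1461 in glands 133 and 392, to 5583 and 5892 in glands 417_3 and 517_3, to 370 to 1423 in the carcinosarcomas and to 2543 to 6234 in the carcinomas. Fibroblast markers summed to 79.8 to 479 in control glands, 137 to 709 in carcinosarcomas and 65.7 to 415 in carcinomas. Most of the sum in glands 133 and 392 was Dpt, at 225 and 312 TPM. Pdgfra was at 10.02 to 15.11 TPM in glands and 23.39 to 46.73 TPM in carcinosarcomas, without overlap. Pdgfrb and Fbln1 did not overlap between these groups either and were also higher in carcinosarcomas, whereas Dpt, Pi16, Fap, Thy1 and Twist2 overlapped. In such bulk tissue, fewer cells of a type and less RNA per cell cannot be told apart. Trim24 itself, the gene carried by the transgene, stood at 14.5 to 22.4 TPM in control glands and at 10.6 to 24.1 TPM in the Trim24COE tumors, a difference of -0.24 ± 0.26 (log2, SE, limma adjusted p = 0.557), so its level does not separate the groups, which are named as labelled throughout.

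Summed over the 44 genes, collagen RNA varied less among the control glands than among the tumors. The sum was 1140, 1183, 1189 and 1047 TPM in glands 133, 392, 417_3 and 517_3, a mean of 1139.8 ± 65.7 (SD, n = 4). It was 7247, 10042 and 2152 TPM in carcinosarcomas 64, 567 and 897, and 3935, 1423 and 3555 TPM in carcinomas 89, 273_5 and 3956. Non-TRIM24 tumors 219, FVB001 and FVB002 had 2324, 1714 and 1960 TPM. Every tumor library thus lay above all 4 control glands, carcinoma 273_5 by the smallest margin. The repeat libraries gave 1347 TPM for gland 133 and 3785 TPM for tumor 3956. With mitochondrial genes removed, the control glands ran from 1108 to 1421 TPM, with a larger SD of 128.3.

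The make-up of that sum differed as much as its size. Fibrillar chains took 62.2% to 80.1% of collagen TPM in the carcinosarcomas, 69.4% in carcinoma 89 and 58.0% in carcinoma 3956, but 21.2% in carcinoma 273_5, and 31.4% to 38.1% in the non-TRIM24 tumors. The control glands were split, with 48.2% and 48.6% in the fat-rich glands 133 and 392 and 19.98% and 20.3% in glands 417_3 and 517_3. Type IV chains held 12.7% to 29.1% in control glands against 3.20% to 5.46% in the carcinosarcomas. The gene with the highest TPM was Col3a1 in most libraries, Col1a2 in tumors 64 and 897, Col18a1 in tumor 273_5, Col4a1 in gland 417_3 and Col9a2 in gland 517_3.

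**Figure D1:**
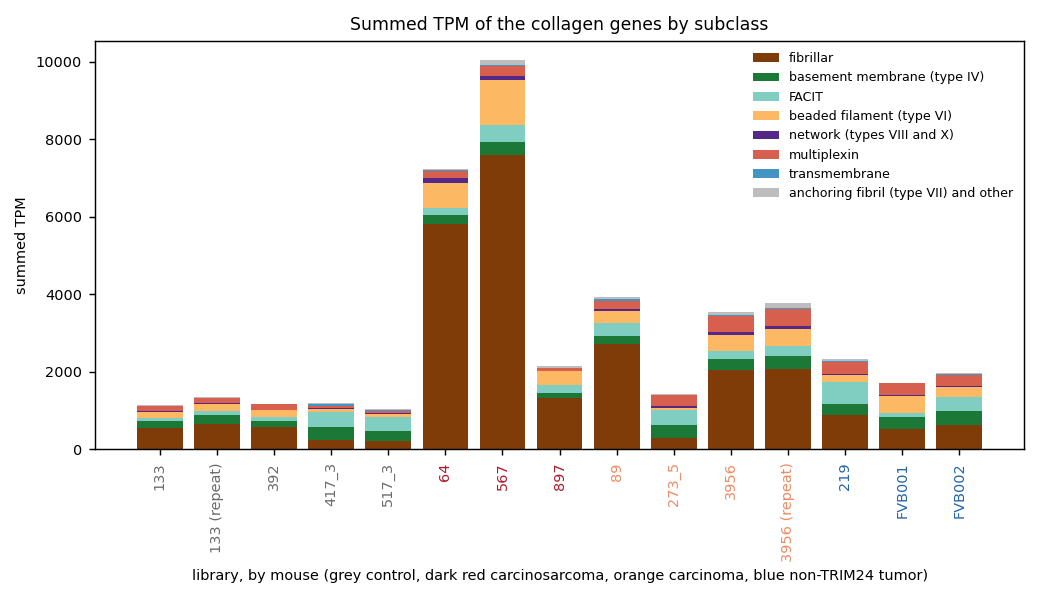
Summed TPM of the collagen genes in each library, stacked by subclass, with libraries named by mouse and colored by group. The 4 control glands sit between 1047 and 1189 TPM, and tumor 567 is the highest at 10042 TPM, most of it fibrillar.

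**Figure D2:**
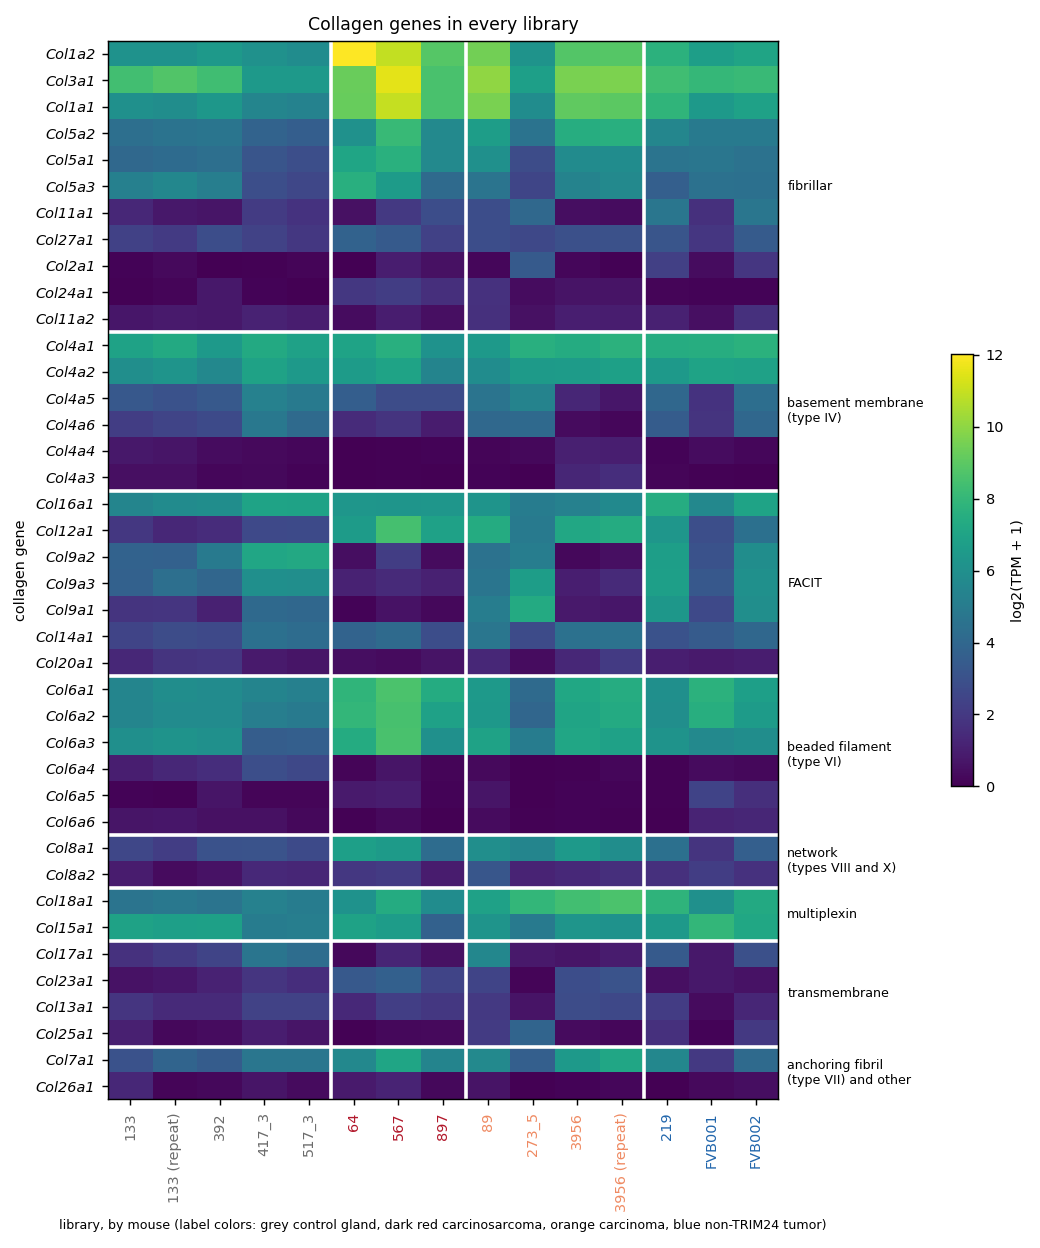
Levels of the collagen genes as log2(TPM + 1), 1 line per gene ordered by subclass and 1 column per library, first and repeat libraries included. The repeat of gland 133 resembles its first library (Spearman rho 0.975 over the 31 members at 1 TPM or more) and so does that of tumor 3956 (0.987 over 28), while control glands 133 and 392 differ visibly from 417_3 and 517_3 in type VI, FACIT and transmembrane genes.

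Several members lie beside each other in the genome, and their levels are described together. On GRCm38, Col4a1 (chromosome 8, 11198423 to 11312826) and Col4a2 (11312805 to 11449287) are transcribed away from each other and share 22 bases at their starts. Col4a4 and Col4a3 on chromosome 1 are arranged likewise, 71 bases apart, as are Col4a6 and Col4a5 on the X chromosome, 1308 bases apart. Col6a2 and Col6a1 follow each other on the same strand of chromosome 10, and Col3a1 and Col5a2 end toward each other on chromosome 1, 24614 bases apart. The upstream sequences of 35 of the 44 members were found in RefSeq on GRCm38.p6, in 38 windows of the 250 bases before the start. In these windows GGGCGG, the core of the GC box, was present in 22 of 38 (57.9%) on either strand, against 32.7% of the 32851 windows of all genes. CCAAT was present in 34.2% against 33.9%, and TATAAA in 13.2% against 12.4%.

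The upstream windows of 4 members whose levels changed in opposite directions or in different groups are shown because no annotated gene overlaps them. Capitals mark GGGCGG and CCAAT or their reverse complements CCGCCC and ATTGG, which do not overlap each other here. Each is written 5′ to 3′ on the strand of its gene, ending at the base before the start. They are those of Col8a1 (chr16:57754738-57754987, minus strand), Col7a1 (chr9:108953336-108953585, plus strand), Col24a1 (chr3:145292222-145292471, plus strand) and Col4a6 (chrX:141474077-141474326, minus strand).
Col8a1: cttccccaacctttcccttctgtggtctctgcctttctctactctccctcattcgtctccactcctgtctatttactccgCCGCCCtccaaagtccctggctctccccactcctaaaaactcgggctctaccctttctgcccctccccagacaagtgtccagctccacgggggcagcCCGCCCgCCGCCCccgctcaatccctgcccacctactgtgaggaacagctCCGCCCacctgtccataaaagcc
Col7a1: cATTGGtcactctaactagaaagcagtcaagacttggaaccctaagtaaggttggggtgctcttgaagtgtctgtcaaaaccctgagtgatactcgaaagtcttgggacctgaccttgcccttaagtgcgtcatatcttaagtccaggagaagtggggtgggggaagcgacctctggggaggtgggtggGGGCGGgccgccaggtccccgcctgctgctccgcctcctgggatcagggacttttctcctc
Col24a1: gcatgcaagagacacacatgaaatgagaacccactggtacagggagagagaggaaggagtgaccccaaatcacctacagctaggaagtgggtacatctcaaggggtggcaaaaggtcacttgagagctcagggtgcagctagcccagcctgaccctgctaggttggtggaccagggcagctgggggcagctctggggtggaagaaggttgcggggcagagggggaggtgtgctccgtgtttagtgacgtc
Col4a6: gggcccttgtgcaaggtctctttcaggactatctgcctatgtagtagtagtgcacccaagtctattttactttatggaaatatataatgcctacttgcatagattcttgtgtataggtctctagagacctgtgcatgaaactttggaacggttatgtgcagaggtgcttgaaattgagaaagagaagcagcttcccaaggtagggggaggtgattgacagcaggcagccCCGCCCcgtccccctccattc
Col8a1 held the GC box 4 times, at -170, -73, -66 and -23 from the start, Col7a1 once at -61 with ATTGG at -249, and Col4a6 once at -21. Col24a1 held none of the 3 motifs in this window. A match is a description of letters and was not tied to any measurement.

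To ask how Trim24COE tumors differ from normal gland, limma was fitted on log2(TPM + 1) over all genes, with p-values adjusted by Benjamini-Hochberg over all genes tested and a threshold of 0.05. Each difference is the mean of the first group minus that of the second on this log2 scale, with its standard error (SE), and it understates the change of genes near 0 TPM. Taking all 6 Trim24COE tumors, 8 of the 32 members tested passed, against 17.1% of all genes tested. Of these, 6 were higher (7.96% of all genes were) and 2 lower (9.13%). The members' median difference was 0.71, against -0.04 for all genes. The higher ones were the type I chains Col1a1 and Col1a2, the type V chain Col5a2, Col12a1, Col8a1 and Col18a1, and the lower ones were Col9a2 and Col6a4. With carcinoma 273_5 left out the count was 17, and with gland 417_3 or 517_3 left out it was 4. With an adipocyte covariate, the mean log2(TPM + 1) of the 8 adipocyte markers, 3 remained, Col12a1, Col8a1 and Col6a4.

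The carcinosarcomas alone differed from the control glands at more members. Here 17 of 31 tested passed, against 23.0% of all genes, with 12 higher (background 9.83%) and 5 lower (background 13.1%). The members' median was 0.80, against -0.12 for all genes. Under quantile normalization the split became 12 higher to 2 lower, and under median-of-ratios scaling 14 to 6, which move the all-gene median to 0.04 and 0.07. With the adipocyte covariate 20 members passed, without Col18a1, Col23a1 and Col7a1 and with Col3a1, Col5a3, Col6a3, Col9a1, Col4a5 and Col16a1 in addition. The adipocyte markers summed to 167 to 222 TPM in the carcinosarcomas and 1730 to 37977 TPM in the glands, without overlap. Covariate and group are therefore partly confounded in this fit. That limit holds for every carcinosarcoma difference with this covariate given below. Against glands 417_3 and 517_3 alone, a choice made after the values were seen, 21 passed, without Col18a1 and Col7a1 and with the same 6 in addition, and against glands 133 and 392 alone 16 passed, without Col5a2, Col4a6 and Col6a4 and with Col20a1 and Col9a1 in addition.

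In the carcinomas 3 of 33 passed, against 3.50% of all genes, and all 3 were higher (background 1.58%). They were Col12a1, Col8a1 and Col18a1. The 3 comparisons share the control glands and the tumors of the first, so they are not independent of each other.

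**Figure D3:**
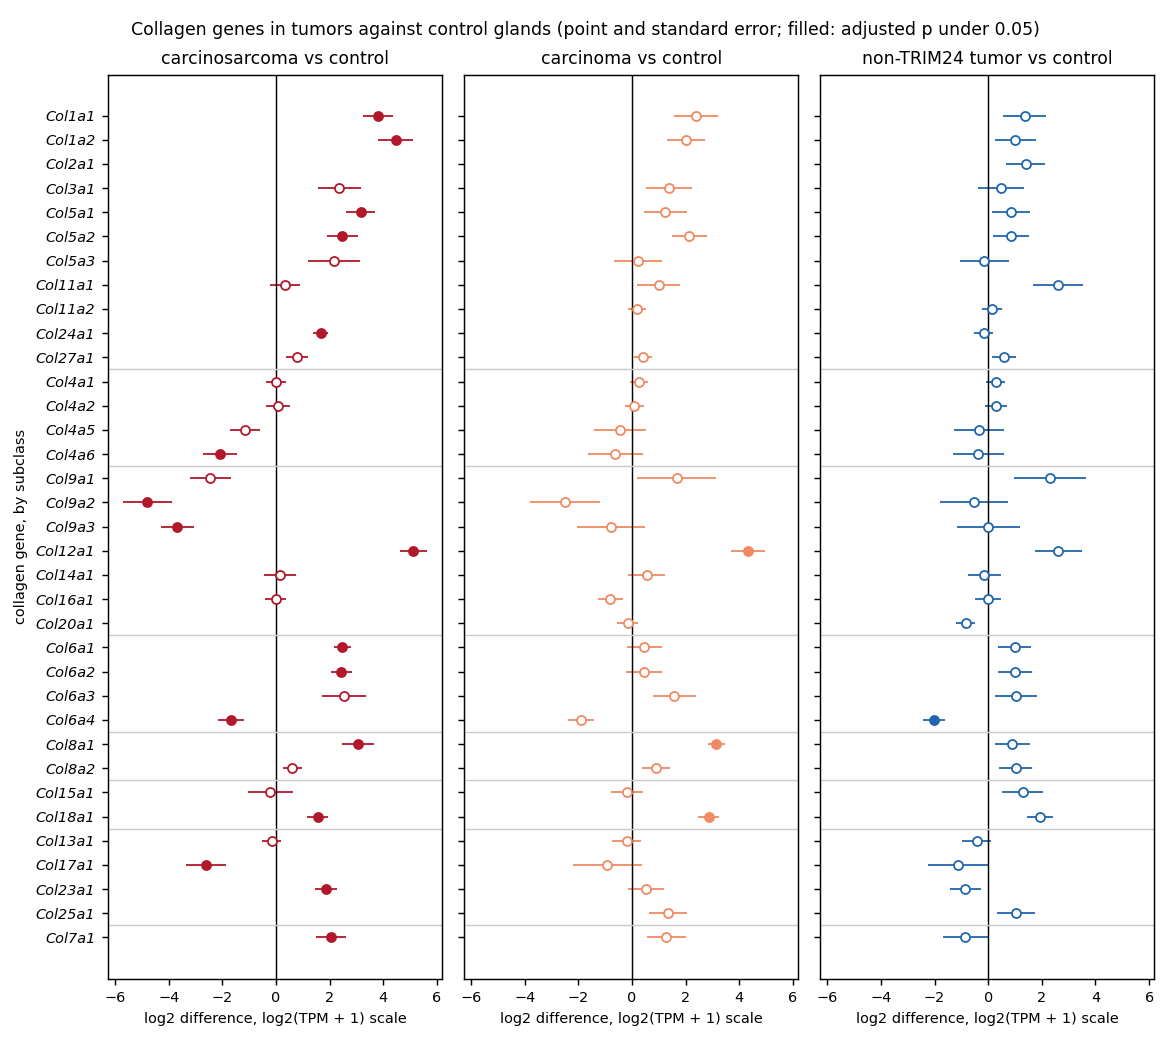
Difference from the 4 control glands of each tested collagen gene, by subclass, for the 3 carcinosarcomas, the 3 carcinomas and the non-TRIM24 tumors. Each is the log2 difference on the log2(TPM + 1) scale with its standard error. The non-TRIM24 panel is from the fit with a batch term described further below. Filled points are past an adjusted p of 0.05, and they number 17, 3 and 1. Col12a1 is the farthest to the right in the carcinosarcoma and carcinoma panels, at 5.13 and 4.32.

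Of the fibrillar genes, 5 of 9 tested were higher in the carcinosarcomas, and none in the carcinomas. Col1a1, the main chain of type I collagen, stood at 64.1, 81.0, 43.8 and 39.5 TPM in glands 133, 392, 417_3 and 517_3, and at 601, 2043 and 376 TPM in carcinosarcomas 64, 567 and 897. In carcinomas 89, 273_5 and 3956 it stood at 769.6, 57.2 and 543 TPM, so that tumor 273_5 fell within the control range while the other 2 were far above it. The difference was 3.79 ± 0.56 (limma adjusted p = 0.00374) for carcinosarcomas and 2.38 (adjusted p = 0.149) for carcinomas. Without tumor 273_5 the carcinoma difference of Col1a1 was 3.54 (adjusted p = 0.0135).

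Col1a2, the partner chain of type I, stood at 70.2, 87.2, 67.7 and 56.3 TPM in the control glands in the same order. It stood at 4185, 1967 and 457 TPM in the carcinosarcomas and at 716, 71.2 and 455 TPM in the carcinomas. Every carcinosarcoma lay above every gland, with a difference of 4.46 ± 0.65 (adjusted p = 0.0037), whereas tumor 273_5 was again inside the control range and the carcinoma difference was 2.02 (adjusted p = 0.151). The call for Col1a2 in the carcinosarcomas held whichever mouse was left out, tumor 64 included. Over all 6 tumors Col1a1 differed by 3.09 ± 0.76 (adjusted p = 0.0192) and Col1a2 by 3.24 ± 0.88 (adjusted p = 0.0289), and both calls were lost without gland 417_3 or 517_3, that of Col1a2 also without gland 133 or 392 or tumor 567.

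Col5a1 and Col5a2 encode the type V chains that start and size type I fibrils. Col5a1 stood at 15.6, 20.1, 8.10 and 6.41 TPM in control glands and at 132, 199 and 49.8 TPM in carcinosarcomas, with no overlap, a difference of 3.16 ± 0.54 (adjusted p = 0.0067). In the carcinomas it stood at 63.8, 5.91 and 54.5 TPM. Col5a2 stood at 20.4, 24.8, 13.2 and 10.99 TPM in control glands, at 66.2, 277 and 49.0 TPM in carcinosarcomas and at 104, 23.0 and 179.8 TPM in carcinomas. Its difference was 2.48 ± 0.59 (adjusted p = 0.0211) in carcinosarcomas, a call lost without tumor 64, and 2.31 ± 0.60 (adjusted p = 0.0233) over all 6 tumors, lost without gland 417_3 or 517_3.

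Col24a1, a minor fibrillar collagen known from developing bone and cornea, was near 0 in most libraries. It stood at 0.04, 0.69, 0.09 and 0.03 TPM in the control glands, at 2.86, 3.54 and 2.06 TPM in the carcinosarcomas and at 2.29, 0.30 and 0.54 TPM in the carcinomas. The carcinosarcomas were higher by 1.67 ± 0.28 (adjusted p = 0.0061), a change between low levels. Its upstream window is the one above that held none of the 3 motifs.

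Col3a1, the homotrimer that accompanies type I in extensible tissue, did not pass with all 4 glands and no covariate. It stood at 335, 319.8, 89.5 and 88.5 TPM in control glands, at 614, 3006 and 378 TPM in carcinosarcomas and at 1037, 108 and 781 TPM in carcinomas. Every carcinosarcoma lay above every gland, but the fat-rich glands 133 and 392 stood well above 417_3 and 517_3, and the difference was 2.37 ± 0.80 (adjusted p = 0.0657). It passed under median-of-ratios scaling (2.60, adjusted p = 0.0495), with the adipocyte covariate (3.94, adjusted p = 0.00743) and against glands 417_3 and 517_3 alone (3.30, adjusted p = 0.0213). The cartilage fibril genes were low or scattered: Col2a1 reached 9.72 TPM in carcinoma 273_5 and 3.79 TPM in non-TRIM24 tumor 219, and Col11a1 reached 15.7 TPM in tumor 273_5, 25.1 TPM in tumor 219 and 25.8 TPM in FVB002, with 0.35 to 6.25 TPM in the other Trim24COE tumors.

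In tumor 64, Col1a2 stood apart from its partner chain. The log2 ratio of Col1a1 to Col1a2 was -2.80 there and between -0.63 and 0.26 in all other libraries. The carcinosarcomas differed from the control glands in this ratio by -0.66 ± 0.91 (exact permutation p = 0.743, two-sided), and leaving out tumor 64 turned the sign, to 0.23. Among the other partner chains, the ratio of Col6a1 to Col6a2 stayed between -0.07 and 0.49 and that of Col4a1 to Col4a2 between 0.37 and 1.03 in first libraries. Of 12 such ratio tests none passed after adjustment, and 3 mice against 4 cannot give a p below 0.0571, nor 3 against 3 below 0.1. The ratio of Col8a1 to Col8a2 had that smallest p of 0.0571 (adjusted p = 0.6) in carcinosarcomas against control glands, with a difference of 2.22 ± 0.51.

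The genes beside Col1a2 were also high in tumor 64. Among protein-coding genes with a median of at least 5 TPM in the other 5 Trim24COE tumors, an unbroken run of 24 genes, from Tfpi2 to Mdfic, stood at 3.74 to 33.0 times that median in tumor 64 (median 8.05). The run spans chromosome 6 from 3962595 to 15802169 on GRCm38, a length of 11.8 Mb, and tumor 64 was the highest of the 6 tumors at all 24 genes. Gng11 was at 1088 TPM against 47.9 to 162 TPM in the other tumors, Bet1 at 489 against 30.9 to 47.0 TPM, Sgce at 263 against 2.64 to 15.6 TPM and Sem1 at 2652 against 97.7 to 215 TPM. Outside the run, Vps50 on one side stood at 1.60 times the median and Tfec on the other at 0.82 times. Genome-wide, 75 of 9882 such genes (0.759%) were at 4 times the median or more, and 23 of the 24 in the run were. The limits of the run were set after the values were seen, and DNA copy number was not analysed here.

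**Figure D4:**
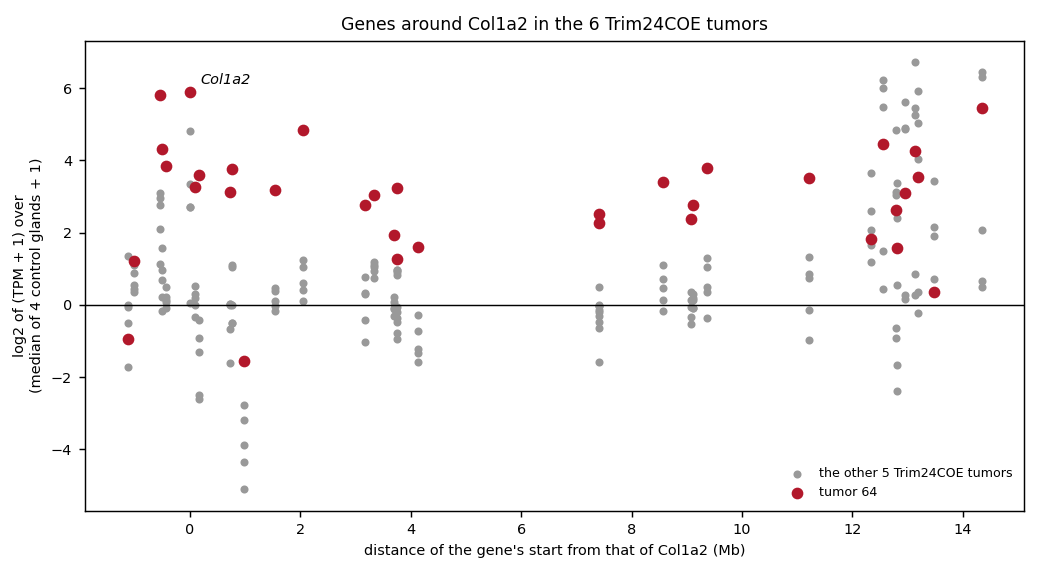
Genes around Col1a2 in the 6 Trim24COE tumors, by the distance of their start from that of Col1a2 in Mb, with the log2 of TPM + 1 over the median of the 4 control glands + 1 on the other axis. Tumor 64 lies above the other 5 tumors along a run of 24 genes that spans 11.8 Mb.

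Type VI collagen forms beaded filaments around cells and next to basement membranes, from Col6a1, Col6a2 and either Col6a3 or 1 of the alternative chains. Col6a1 stood at 44.0, 55.3, 42.5 and 36.2 TPM in control glands and at 235, 398 and 167 TPM in carcinosarcomas. Col6a2 tracked it, with 43.8, 54.5, 34.3 and 30.3 TPM in glands and 246, 364 and 119 TPM in carcinosarcomas. Both chains were higher in the carcinosarcomas, by 2.48 ± 0.32 (adjusted p = 0.0024) and 2.44 ± 0.40 (adjusted p = 0.00552), and neither call was lost under any alternative or with any mouse left out.

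In the carcinomas Col6a1 stood at 91.3, 16.6 and 144 TPM and Col6a2 at 83.8, 14.7 and 128 TPM, tumor 273_5 being the lowest of all mice at both. Col6a3, the third chain of the common trimer, stood at 61.9, 64.7, 10.7 and 11.7 TPM in control glands, at 167, 384 and 64.2 TPM in carcinosarcomas and at 123, 32.4 and 137 TPM in carcinomas. Tumor 897 fell just below gland 392, and the carcinosarcoma difference was 2.53 ± 0.83 (adjusted p = 0.0601). It passed without gland 133 (2.92, adjusted p = 0.048) or 392 (2.94, adjusted p = 0.0427), under median-of-ratios scaling (2.75, adjusted p = 0.0478), with the adipocyte covariate (4.39, adjusted p = 0.00231) and against glands 417_3 and 517_3 alone (3.73, adjusted p = 0.00756). The ratio of Col6a3 to Col6a1 was 0.25 and 0.32 in glands 417_3 and 517_3 and 1.41 and 1.17 in glands 133 and 392.

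Col6a4, an alternative chain, moved the other way. It stood at 1.02, 1.97, 6.32 and 5.17 TPM in control glands and at 0.00 to 0.61 TPM in the 6 Trim24COE tumors, below every gland. The difference was -1.79 ± 0.35 (adjusted p = 0.00715) over all 6 tumors and -1.68 ± 0.47 (adjusted p = 0.0373) for carcinosarcomas, the latter lost without any of 5 of the 7 mice. For the carcinomas alone it was -1.90 (adjusted p = 0.0702), and it passed there with the adipocyte covariate (-2.46, adjusted p = 0.0196), under 3 other alternatives and without gland 133. Its neighbours Col6a5 and Col6a6 on chromosome 9 stayed under 1 TPM in glands and Trim24COE tumors and were highest in non-TRIM24 tumors FVB001 (4.27 and 1.28 TPM) and FVB002 (2.12 and 1.44 TPM).

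The FACIT genes split by type. Col12a1, which encodes type XII on the surface of type I fibrils, had the largest difference of the members tested in all 3 comparisons with control glands. It stood at 2.82, 1.91, 5.27 and 5.41 TPM in control glands, at 97.8, 353 and 118 TPM in carcinosarcomas and at 167, 29.9 and 147 TPM in carcinomas, each tumor above each gland. The difference was 5.13 ± 0.50 (adjusted p = 0.00115) in carcinosarcomas, 4.32 ± 0.63 (adjusted p = 0.0172) in carcinomas and 4.72 ± 0.55 (adjusted p = 0.000525) over all 6. The carcinoma call was lost without tumor 3956 and without gland 417_3 or 517_3.

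Type IX collagen, a trimer of Col9a1, Col9a2 and Col9a3 known from the surface of cartilage fibrils, was lower in the carcinosarcomas at 2 of its 3 genes. Col9a2 stood at 12.9, 30.3, 139.8 and 151 TPM in control glands and at 0.35, 3.57 and 0.28 TPM in carcinosarcomas. Col9a3 stood at 12.3, 14.9, 63.1 and 61.5 TPM in glands and at 1.22, 1.74 and 1.18 TPM in carcinosarcomas. The differences were -4.80 ± 0.90 (adjusted p = 0.00938) and -3.68 ± 0.62 (adjusted p = 0.00611), with neither call lost under any alternative, and Col9a1 gave -2.45 ± 0.76 (adjusted p = 0.0504). Col9a1 passed under other settings, with -4.31 (adjusted p = 0.000584) for the adipocyte covariate and -1.13 (adjusted p = 0.0361) against glands 133 and 392 alone. Over all 6 tumors Col9a2 was at -3.64 ± 1.12 (adjusted p = 0.0452), a call lost without any of 7 of the 10 mice.

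The carcinomas were not alike in type IX. The 3 genes together summed to 80.3 TPM in tumor 89, 297 TPM in tumor 273_5 and 1.96 TPM in tumor 3956, against 27.7, 46.3, 219 and 228 TPM in glands 133, 392, 417_3 and 517_3 and 295, 21.2 and 184 TPM in non-TRIM24 tumors 219, FVB001 and FVB002. Col9a1 alone reached 161 TPM in tumor 273_5. Mammary epithelial markers summed to 4812, 2543 and 6234 TPM in carcinomas 89, 273_5 and 3956 and to 5549, 538 and 3095 TPM in tumors 219, FVB001 and FVB002. In glands 133, 392, 417_3 and 517_3 they summed to 826, 1461, 5583 and 5892 TPM. Of the 6 chondrocyte markers, Matn1 and Matn3 were under 1 TPM in every library, and Ucma reached 2.05 TPM at most. Acan was at 16.3, 1.73 and 2.45 TPM in carcinosarcomas 64, 567 and 897 and at 0.01 to 0.12 TPM in glands. It was at 1.41, 0.00 and 3.70 TPM in carcinomas 89, 273_5 and 3956 and at 0.02 TPM at most in the non-TRIM24 tumors. Cnmd was at 1.65, 3.45 and 0.00 TPM in the carcinomas in that order and at 0.28 to 0.44 TPM in the carcinosarcomas. It was at 1.01 to 12.99 TPM in glands and at 6.65, 0.83 and 3.61 TPM in the non-TRIM24 tumors. The sum of the list, most of it Sox9, was 32.2 to 104 TPM in glands, 25.9 to 40.6 TPM in carcinosarcomas, 64.8, 11.46 and 31.7 TPM in the carcinomas and 15.8, 2.80 and 11.6 TPM in the non-TRIM24 tumors. Sox10, a marker of the Schwann cell list singled out after its values were seen, was at 38.5, 36.7, 139 and 124 TPM in glands, 0.43 to 3.30 TPM in carcinosarcomas, 53.3, 116 and 0.64 TPM in carcinomas and 233, 18.1 and 135 TPM in the non-TRIM24 tumors. The part of cell composition in these differences was not tested.

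Col16a1, a FACIT of fibrillin microfibrils and fibrils, had the highest mean TPM of that subclass and did not pass with all 4 glands and no covariate. It stood at 43.4, 59.0, 126 and 123 TPM in glands, at 79.4, 77.3 and 79.9 TPM in carcinosarcomas and at 74.6, 31.8 and 38.3 TPM in carcinomas. The carcinosarcoma difference was -0.01 ± 0.40 (adjusted p = 0.987), but -0.93 (adjusted p = 0.0338) with the adipocyte covariate and -0.65 (adjusted p = 0.0351) against glands 417_3 and 517_3 alone. Of the others, Col14a1 ranged from 4.51 to 25.8 TPM with overlapping groups, Col20a1 reached 2.72 TPM at most in first libraries, and Col19a1 and Col22a1 stayed under 1 TPM everywhere.

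**Figure D5:**
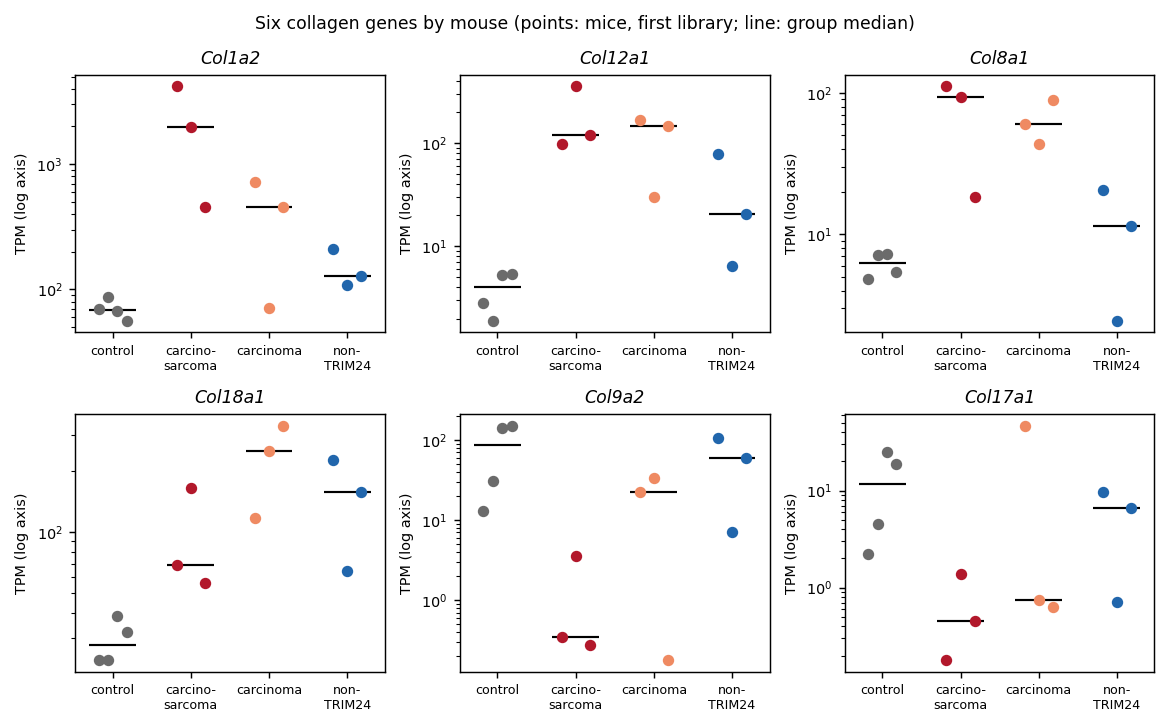
TPM of Col1a2, Col12a1, Col8a1, Col18a1, Col9a2 and Col17a1 on log axes, 1 point per mouse (first library) with the group median as a line. Col12a1 and Col8a1 lie above all 4 control glands in all 6 Trim24COE tumors, Col9a2 lies at 0.28 to 3.57 TPM in the carcinosarcomas and at 0.18 TPM in carcinoma 3956, and Col17a1 is high in carcinoma 89 alone of the Trim24COE tumors.

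Col8a1, a short-chain collagen of vessel walls and corneal membrane, was higher in both tumor classes. It stood at 4.84, 7.16, 7.31 and 5.43 TPM in the control glands, at 111, 93.9 and 18.3 TPM in carcinosarcomas and at 60.2, 43.4 and 88.8 TPM in carcinomas. The lowest tumor exceeded the highest gland, with differences of 3.06 ± 0.58 (adjusted p = 0.00973) and 3.14 ± 0.32 (adjusted p = 0.00905). These calls and that over all 6 tumors (3.10 ± 0.45, adjusted p = 0.00146) held under every alternative and with any mouse left out. Its window above carries the GC box 4 times. Its partner Col8a2 was far lower, at 0.49 to 1.63 TPM in control glands, at 0.91 to 3.21 TPM in carcinosarcomas and at 8.17, 1.26 and 1.61 TPM in carcinomas, and Col10a1 stayed under 1 TPM.

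Of the multiplexins, which border basement membranes, Col18a1, the source of endostatin, was higher in both classes, and over all 6 tumors by 2.20 ± 0.47 (adjusted p = 0.0104). It stood at 23.5, 23.5, 38.6 and 32.3 TPM in control glands, at 69.2, 166 and 56.3 TPM in carcinosarcomas and at 117, 251 and 335 TPM in carcinomas. The differences were 1.55 ± 0.40 (adjusted p = 0.0275) and 2.85 ± 0.39 (adjusted p = 0.0154), the first of which was lost with any of 5 mice left out and the second without tumor 3956 or gland 517_3. With the adipocyte covariate the 6-tumor difference was 2.11 (adjusted p = 0.067) and the carcinosarcoma difference 1.26 (adjusted p = 0.0942), and against glands 417_3 and 517_3 alone they were 1.92 (adjusted p = 0.0715) and 1.27 (adjusted p = 0.0702). Col15a1, known around fat cells, muscle and capillaries, stood at 119, 114, 31.8 and 34.0 TPM in control glands, at 120.4, 99.2 and 12.3 TPM in carcinosarcomas and at 73.9, 29.2 and 75.2 TPM in carcinomas. The 2 fat-rich glands were the high ones, and FVB001, the library with the most adipocyte marker RNA, had the highest Col15a1 of all at 252 TPM.

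Col7a1, the anchoring fibril collagen that ties epithelial basement membrane to stroma, stood at 7.17, 10.5, 25.5 and 25.0 TPM in control glands, at 47.8, 133 and 41.6 TPM in carcinosarcomas and at 49.9, 11.3 and 89.9 TPM in carcinomas. The carcinosarcomas were higher by 2.04 ± 0.56 (adjusted p = 0.0348), a call lost without any of 5 of the 7 mice, and the carcinomas differed by 1.27 (adjusted p = 0.363). Col26a1 and Col28a1 were near 1 TPM or below, with highest values of 1.53 TPM in gland 133 and 0.80 TPM in tumor 64.

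Of 3 transmembrane collagens tested, 1 was lower and 1 higher in the carcinosarcomas. Col17a1, a part of the hemidesmosomes of basal epithelium, stood at 2.24, 4.49, 24.9 and 18.9 TPM in control glands and at 0.18, 1.40 and 0.45 TPM in carcinosarcomas, a difference of -2.61 ± 0.74 (adjusted p = 0.0375). Among the carcinomas it was at 46.9 TPM in tumor 89, the highest of all mice, and at 0.74 and 0.63 TPM in tumors 273_5 and 3956. Col23a1, an epithelial surface collagen, stood at 0.52, 1.23, 2.62 and 1.99 TPM in control glands and at 9.11, 12.1 and 4.49 TPM in carcinosarcomas, a difference of 1.87 ± 0.42 (adjusted p = 0.0176). In the carcinomas it stood at 4.45, 0.12 and 6.19 TPM. The Col17a1 call was lost without any of 5 mice and that of Col23a1 without tumor 64 or 567. Col13a1 ranged from 0.26 to 6.05 TPM, and Col25a1 reached 13.6 TPM in tumor 273_5 and 3.33 TPM in tumor 89, with at most 3.04 TPM elsewhere.

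Of 4 type IV chains of basement membranes tested, 1 was lower in the carcinosarcomas and none passed in the other comparisons with control glands. Col4a1 stood at 120.3, 86.5, 160 and 117 TPM in glands, at 124, 189 and 69.0 TPM in carcinosarcomas and at 90.9, 190.0 and 170 TPM in carcinomas. Col4a2, which shares its start region, stood at 61.1, 48.7, 121 and 87.1 TPM in glands, at 95.5, 124 and 41.4 TPM in carcinosarcomas and at 56.9, 93.0 and 95.1 TPM in carcinomas. Their carcinosarcoma differences were -0.01 ± 0.37 and 0.08 ± 0.45 (adjusted p = 0.988 and 0.918), with overlapping groups.

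The chains Col4a5 and Col4a6, found in epithelial and smooth muscle basement membranes, varied much more. Col4a6 stood at 3.53, 5.54, 27.5 and 17.0 TPM in glands, at 1.76, 2.46 and 0.86 TPM in carcinosarcomas and at 15.8, 16.4 and 0.28 TPM in carcinomas. It was lower in carcinosarcomas, with a difference of -2.09 ± 0.64 (adjusted p = 0.0498), a call lost without any of 5 mice. Col4a5 stood at 8.89, 9.28, 38.0 and 29.5 TPM in glands, at 10.9, 5.97 and 6.02 TPM in carcinosarcomas and at 23.4, 40.8 and 1.47 TPM in carcinomas, with a carcinosarcoma difference of -1.16 ± 0.56 (adjusted p = 0.167), which became -2.49 (adjusted p = 0.0016) with the adipocyte covariate and -2.05 (adjusted p = 0.00556) against glands 417_3 and 517_3 alone. Col4a3 and Col4a4 passed 1 TPM in carcinoma 3956 alone, at 1.45 and 1.07 TPM.

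Between the tumor classes, carcinosarcomas against carcinomas, limma called 0 of 28 members tested, against 0.698% of all genes. At an unadjusted p under 0.05 there were 4, of which Col6a1 (2.02), Col6a2 (1.99) and Col24a1 (1.01) had positive differences and Col18a1 (-1.30) a negative one. Their adjusted p-values ran from 0.298 to 0.325. The share of all genes at an unadjusted p under 0.05 was not computed, so the 0.698% is no background for these 4. The groups did not overlap for 2 of the 28, Col6a1 and Col16a1, against 21.8% of all genes. When tumor 3956 was left out, 4 members were lower in the carcinosarcomas, with differences of -5.91 for Col9a1 (adjusted p = 0.0189), -4.45 for Col9a3 (adjusted p = 0.0279), -3.83 for Col9a2 (adjusted p = 0.0446) and -2.71 for Col4a6 (adjusted p = 0.0292). That tumor was at 1.96 TPM for type IX and at 0.28 TPM for Col4a6, within or below the range of the carcinosarcomas. Carcinoma 89 was at 80.3 TPM for type IX and at 15.8 TPM for Col4a6. Both tumors were labelled carcinomas and were each a carcinosarcoma to 1 pathologist, and the part of the diagnosis in these values was not tested.

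For the non-TRIM24 tumors all 15 libraries were fitted together with a batch term, the libraries of 1 mouse being linked by an estimated correlation. Against control glands, 1 of 35 members tested passed, against 0.709% of all genes. This was Col6a4, which was lower (background 0.507%), at 0.06, 0.26 and 0.18 TPM in tumors 219, FVB001 and FVB002, a difference of -2.02 ± 0.42 (adjusted p = 0.0443) that was lost without any of 5 of the 7 mice. The repeat library of gland 133, the only control library of the same batch, does not allow a test within that batch. At an unadjusted p under 0.05 there were 5 members, a count for which the share of all genes was not computed. Col18a1, at 227, 64.1 and 157 TPM in the 3 tumors, passed under 3 alternatives, for instance with 2.26 (adjusted p = 0.0436) under median-of-ratios scaling.

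The carcinosarcomas exceeded the non-TRIM24 tumors at 3 of 35 members tested, against 4.76% of all genes in either direction and 3.24% higher. Col1a2, at 210.4, 108 and 128 TPM in the non-TRIM24 tumors, differed by 3.46 ± 0.83 (adjusted p = 0.034). Col24a1, at 0.12, 0.07 and 0.08 TPM there, differed by 1.84 ± 0.38 (adjusted p = 0.0213), and Col23a1, at 0.39, 0.72 and 0.50 TPM, by 2.73 ± 0.62 (adjusted p = 0.0294). All 3 calls were lost without tumor 64 and without tumor 567. The batch holds no carcinosarcoma, so within-batch values cannot be given. Between carcinomas and non-TRIM24 tumors limma called 0 of 35, against 0.0298% of all genes, with 4 at an unadjusted p under 0.05 (Col8a1 2.20, Col7a1 2.11, Col23a1 1.40 and Col24a1 0.82, adjusted p from 0.187 to 0.276). For that unadjusted count, too, the share of all genes was not computed.

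Genes that make, process, bind and degrade collagen were followed as 62 genes in 6 lists. In carcinosarcomas against control glands 33 of 57 tested passed, 32 of them higher (background 23.0%, and 9.83% higher), and in carcinomas 5 of 54 did, 4 of them higher (background 3.50% and 1.58%). Of the synthesis genes, 15 of 22 were higher in the carcinosarcomas, a share to be read, like those of the other lists, against these 9.83%. P4ha1, a catalytic subunit of the prolyl hydroxylase that stabilizes the triple helix, was at 12.3 to 19.9 TPM in control glands and 61.5 to 152 TPM in Trim24COE tumors, higher by 2.81 ± 0.27 (adjusted p = 0.00115) in carcinosarcomas and by 2.10 ± 0.27 (adjusted p = 0.0144) in carcinomas. The lysyl hydroxylase Plod2 was higher in both classes too, by 2.76 (adjusted p = 0.00127) and 1.74 (adjusted p = 0.0395), as was P4ha3, by 2.83 (adjusted p = 0.00323) and 2.93 (adjusted p = 0.0299). P4hb, P3h1 and Fkbp10 were higher in carcinosarcomas by 1.86, 2.46 and 3.13. Fkbp10, a chaperone of procollagen folding, was also the single list gene of 51 tested to pass between the classes, at 180.5, 161 and 109 TPM in carcinosarcomas and 36.1, 26.3 and 37.8 TPM in carcinomas (2.12 ± 0.28, adjusted p = 0.0291), a call lost without any of 5 of the 6 mice.

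The steps outside the cell showed a like pattern. All 5 lysyl oxidases, which crosslink fibrils, were higher in the carcinosarcomas, with Loxl2 at 2.53 to 10.1 TPM in glands and 84.8, 112 and 88.1 TPM in carcinosarcomas (3.90 ± 0.48, adjusted p = 0.00206). Of 7 propeptide processing genes tested, Bmp1 (3.02 ± 0.28, adjusted p = 0.000948), Adamts14 (2.73) and Pcolce (3.04) were higher. All 6 collagen-degrading proteases tested were higher, led by Mmp13 at 1.45 to 4.87 TPM in glands and 71.2, 895 and 667 TPM in carcinosarcomas (6.50 ± 0.84, adjusted p = 0.00232). In carcinomas 89, 273_5 and 3956 Mmp13 stood at 308, 11.9 and 898 TPM and Bmp1 at 87.3, 34.0 and 209 TPM. Tumor 3956 thus exceeded every carcinosarcoma at both. No crosslinking, propeptide or protease gene passed in carcinomas against control glands or between the tumor classes. Markers of macrophages, which also make such proteases, summed to 119 to 403 TPM in glands and 387 to 651 TPM in carcinosarcomas. Most of the sum in glands 417_3 and 517_3 was Cd14, at 347 and 362 TPM. Cd68, at 19.0 to 31.8 TPM in glands and 83.9 to 158 TPM in carcinosarcomas, did not overlap between these groups. Csf1r, Itgam and Mrc1 did not overlap either and were also higher in carcinosarcomas, whereas Cd14 and Adgre1 overlapped. The part of macrophages in the protease result was not tested.

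Of 8 receptor genes tested, 3 were higher in the carcinosarcomas, namely the uptake receptor Mrc2 (3.43 ± 0.38, adjusted p = 0.00152), Lair1 (1.67) and Itgb1 (1.72). Of 9 leucine-rich proteoglycans that coat fibrils, 3 passed over all 6 Trim24COE tumors (background 17.1%), 1 higher and 2 lower. The higher one was Bgn, at 98.55 to 187 TPM in glands, 154 to 1060 TPM in carcinosarcomas and 206 to 825 TPM in carcinomas. Its call held in 2 of 10 fits without 1 mouse. In the carcinosarcomas 6 of the 9 had a difference above 0, and only 1 gene, a lower one, passed. This was Prelp, at 97.1, 181, 100.4 and 80.8 TPM in control glands and 1.79 to 25.5 TPM in Trim24COE tumors, with differences of -4.51 ± 0.44 (adjusted p = 0.00115) in carcinosarcomas and -3.63 ± 0.63 (adjusted p = 0.0257) in carcinomas. The 5 list genes past the threshold in carcinomas (P4ha1, P4ha3, Plod2, Lair1 and Prelp) each lost that call without tumor 3956. In the fat-rich non-TRIM24 tumor FVB001 Prelp stood at 293 TPM. Against the non-TRIM24 tumors, 13 of 59 list genes passed in carcinosarcomas, 12 of them higher (background 4.76% and 3.24%), with Fkbp10 at 3.25 ± 0.44 (adjusted p = 0.00595). No list gene of 59 passed between non-TRIM24 tumors and control glands or between carcinomas and non-TRIM24 tumors by limma, with 13 in each at an unadjusted p under 0.05. The share of all genes at that unadjusted threshold was not computed.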

How the data were processed

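RNA from 15 libraries of 13 mice was sequenced by the authors. Per the study's methods they trimmed reads with Trimmomatic, aligned them to GRCm38 with STAR and estimated abundance with RSEM on GENCODE M14, while the submitters' processing notes also name mm10, FastQC, TopHat, Cufflinks, DESeq and edgeR. Labels and methods name different extraction and library kits. The deposited values are TPM, which sum to a common total in each library, so depth is unknown and no counting interval can be given.

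Groups, mice and batches were taken from the labels. Group differences came from limma (version 3.58.1, R 4.3.3, lmFit and a trended eBayes) on log2(TPM + 1), two-sided, with Benjamini-Hochberg adjustment over all genes that reached 1 TPM in a number of libraries equal to the mice of the smaller group, and a threshold of 0.05. Comparisons within batch 1 used first libraries and the compared groups only. For non-TRIM24 tumors all 15 libraries entered with a batch term, repeat libraries being linked by duplicateCorrelation (statmod 1.5.0). Ratios of partner chains were compared by an exact two-sided permutation test over mice (scipy 1.17.1, Python 3.11.15). The fitting procedure was tested on simulated data. Gene positions came from GENCODE M21, which holds all 44 IDs (36 in the same version), and upstream windows from RefSeq.

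The genes, subclasses, lists and tests were chosen with earlier results of these data known. Values by mouse, in places as a range, were given for members past the threshold in a comparison. The same holds for the 2 members of each subclass with the highest mean TPM and for partner chains, mostly in control glands and Trim24COE tumors. At most 6 genes per list and direction were named by the smallest p, most with only a difference or a range. Genes beside Col1a2, and Col2a1, Col11a1, Col14a1 and Col25a1, are not covered by these rules and were picked once their values had been seen. Alternatives were another pseudocount (0.1 TPM), no filter, median-of-ratios scaling, quantile normalization, an adipocyte marker covariate, other handling of groups, repeat libraries and batch, and leaving out each mouse. Leaving out pairs of control glands, and each mouse for ratios and sums, was added after the data were seen.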

Additional observations from a re-analysis of the deposited data

Results flagged for a closer look

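Of 74 groups of 4 to 10 values examined, 4 held a sample far from the others, and chance alone gives about 1 in 20. Each is given with the gap of that sample to its nearest neighbour as a share of the range of the group. Col17a1 was highest in carcinoma 89 among the 6 Trim24COE tumors, with a gap of 0.808 on the log2(TPM + 1) scale. Col23a1 was lowest in carcinoma 273_5 among the same tumors, with a gap of 0.643. Col24a1 was highest in gland 392 among the 4 control glands, with a gap of 0.886, although at 0.69 TPM. The log2 ratio of Col1a1 to Col1a2 was lowest in carcinosarcoma 64, with a gap of 0.813. No explanation of these values was tested.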

How the results depend on the processing

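Across 32 calls of a member in a comparison, 14 passed under every alternative and with each mouse left out, and none reversed. These were Col12a1, Col8a1 and Col6a4 in all 6 Trim24COE tumors, Col8a1 in carcinomas, and Col12a1, Col8a1, Col1a1, Col1a2, Col5a1, Col24a1, Col6a1, Col6a2, Col9a2 and Col9a3 in carcinosarcomas, all against control glands. The calls passed in 228 and were lost in 52 of the other alternatives, and passed in 179 and were lost in 66 of the fits without 1 mouse. TPM gives no depth, and 3 or 4 mice a group limit the precision.

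The count of members past the threshold for Trim24COE tumors against control glands, 8, became 4 without a filter on low values, 3 with the adipocyte covariate and 4 with glands 133 and 392 only, and ran from 4 to 17 with 1 mouse left out. For carcinosarcomas against control glands, 17, it was 10 without the filter and 10 to 17 with 1 mouse left out, the 10 without tumor 64. For carcinomas against control glands, 3, it was 1 without the filter and 1 to 6 with 1 mouse left out, the 6 without tumor 273_5. Between the tumor classes it ran from 0 to 4, the 4 without tumor 3956. For non-TRIM24 tumors against control glands, 1, it was 0 without the filter, 0 under quantile normalization, 0 with libraries treated as separate, and 2 under median-of-ratios scaling, with the adipocyte covariate or without the batch term, and 0 to 1 with 1 mouse left out. For carcinosarcomas against non-TRIM24 tumors, 3, it was 0 without the filter, 0 with libraries treated as separate, 1 with the adipocyte covariate and 7 without the batch term, and 0 to 4 with 1 mouse left out. For carcinomas against non-TRIM24 tumors, 0, it was 1 without the batch term and 0 to 0 with 1 mouse left out. Without the filter more genes share the adjustment. The cause of the other shifts was not tested.

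Scaling moved the median difference of all genes between non-TRIM24 tumors and control glands from -0.27 to -0.00 (median-of-ratios) and -0.04 (quantile), between carcinomas and non-TRIM24 tumors from 0.27 to 0.01 and 0.08, and between tumor classes from -0.10 to 0.06 and 0.04.

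The mean summed collagen TPM of control glands, 1139.8 ± 65.7 (SD), was 1269.9 ± 128.3 with mitochondrial genes removed. With 1 mouse left out it ran from 1123 to 1171 in control glands, 4699 to 8644 in carcinosarcomas, 2489 to 3745 in carcinomas and 1837 to 2142 in non-TRIM24 tumors. The difference in the log2 ratio of Col6a1 to Col6a2 between carcinomas and control glands, 0.01, was -0.0397 with the repeat libraries and -0.0361 to 0.0649 with 1 mouse left out. With 1 mouse left out, the carcinosarcoma difference from control glands ran from -1.20 to 0.23 for Col1a1 to Col1a2, -0.17 to 0.0170 for Col4a1 to Col4a2, -0.12 to 0.16 for Col6a1 to Col6a2 and 1.99 to 2.63 for Col8a1 to Col8a2. The carcinoma difference ran from 0.24 to 0.52, 0.09 to 0.29 and 1.38 to 2.83 for the first, second and last of these. Between the tumor classes it ran from -1.56 to -0.13, -0.36 to -0.17, -0.13 to 0.15 and -0.62 to 0.83. No paired analysis was possible because the labels give no replicate numbers that groups share.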
